A study of Mus musculus with 27 samples.

Results

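The aryl hydrocarbon receptor (AhR) complex was followed here through 6 genes, chosen by name and found by their Ensembl identifiers among the 46078 genes counted in each mouse. *Ahr* encodes the receptor, *Arnt* its DNA-binding partner, *Hsp90ab1* and *Ptges3* (p23) the chaperones that hold the unliganded receptor, and *Ahrr* and *Tiparp* its repressors. All 6 genes passed the filter on low counts, which left 16741 genes for testing. The RNA-Seq libraries were made from scraped epithelium of the distal ileum of 27 male C57BL/6 mice, labelled as postnatal day 56. TCDD (dioxin), a persistent AhR ligand, was given by gavage to 8 groups of 3 mice. The lower doses were 0.01, 0.03, 0.1 and 0.3 µg/kg, the higher doses were 1, 3, 10 and 30 µg/kg, and the 9th group of 3 received sesame oil vehicle alone. Every mouse, including the vehicle controls, was gavaged at intervals of 4 d over 28 d. The comparisons ask at which dose each gene of the complex changed, and by how much.

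Without ligand, AhR is kept in the cytoplasm by a complex that includes HSP90 and p23. A ligand sends the receptor to the nucleus, where it pairs with ARNT and binds dioxin response elements, whose core is GCGTG, near genes such as *Cyp1a1*. Its targets include AHRR, which competes for ARNT and for the element, and TIPARP, a mono-ADP-ribosyltransferase that modifies AhR and lowers its activity. Both repressors therefore close a feedback loop, and the intestinal epithelium is a tissue in which dietary and microbial ligands reach the receptor directly.

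The sequences in front of the feedback genes are shown because these were the 2 genes of the set that changed by at least 1.5-fold. Both were taken from RefSeq (GRCm38.p6), run 5′ to 3′ on the strand of the gene, and end at the base before the annotated start. Where the RefSeq and GENCODE M21 starts differ, the earlier one was used. Capitals mark GCGTG on the strand shown, or CACGC, its complement on the other strand.
*Ahrr*, minus strand, chr13:74292332-74292581: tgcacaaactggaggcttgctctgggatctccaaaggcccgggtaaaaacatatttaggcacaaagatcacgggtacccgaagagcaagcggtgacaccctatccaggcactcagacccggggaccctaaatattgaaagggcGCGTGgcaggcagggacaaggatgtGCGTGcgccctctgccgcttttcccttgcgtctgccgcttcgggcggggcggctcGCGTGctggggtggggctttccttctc
*Tiparp*, plus strand, chr3:65528197-65528409: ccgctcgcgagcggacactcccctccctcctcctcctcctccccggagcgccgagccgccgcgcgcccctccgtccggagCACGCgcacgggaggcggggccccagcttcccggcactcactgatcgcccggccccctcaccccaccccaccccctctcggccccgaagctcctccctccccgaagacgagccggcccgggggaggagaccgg

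The *Ahrr* window held 3 copies of GCGTG, which began 107, 82 and 27 bases before the start. The *Tiparp* window held 1, on the other strand, which began 133 bases before the start. Over the full 250 bases before the RefSeq start, *Arnt* held 1 copy and *Ptges3* held 2. Of 32817 mouse promoter windows of 250 bases in the same table, 28.1% held at least 1 copy on either strand and 2.77% held at least 3. A match of 5 letters is a description of the sequence and was not read as a binding site.

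*Ahr* (ENSMUSG00000019256) lies on the minus strand of chromosome 12, from base 35497974 to 35535038. *Arnt* (ENSMUSG00000015522) lies on the plus strand of chromosome 3, from 95434388 to 95497240, with *Gm42672* within an intron on the same strand. *Ahrr* (ENSMUSG00000021575) lies on the minus strand of chromosome 13, from 74211118 to 74292331. *Tiparp* (ENSMUSG00000034640) lies on the plus strand of chromosome 3, from 65528410 to 65555518. *Ptges3* (ENSMUSG00000071072) lies on the plus strand of chromosome 10, from 128058954 to 128077272, and *Hsp90ab1* (ENSMUSG00000023944) on the minus strand of chromosome 17, from 45567775 to 45573271. All positions are from GENCODE M21 on GRCm38, the build to which the authors mapped the reads.

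The libraries held 12.26 to 17.14 M counts on genes. Values below are CPM, the counts scaled to a common library size with TMM factors, and a gene was called where edgeR's quasi-likelihood test gave a Benjamini-Hochberg adjusted p of at most 0.05 over all 16741 genes and a change of at least 1.5-fold. The doses share the 3 vehicle mice, so their comparisons are not independent. In order of mouse number, library indexes first appeared for 16 mice (vehicle to 0.3 µg/kg and mouse 41 at 1 µg/kg). They appeared again for 11 mice (mice 43 and 44 at 1 µg/kg and all mice from 3 µg/kg up). The split into a first and a second use was inferred from this order. This second use cannot be told apart from the higher doses, except within the 1 µg/kg group. A score of 15 clock genes also moved with dose, between 0.88 and 1.02 with vehicle and between -1.32 and -1.13 at the top dose, and mouse 14 at 0.01 µg/kg stood apart from its group at -0.64. No source used here gives the time of day at which each mouse was sampled, and the part of the clock in the results was not tested beyond fits with the score as a covariate. The scrapings had the ileal enterocyte markers *Slc10a2* (359 ± 39.1 CPM, SD, n = 3) and *Fabp6* (1696 ± 179 CPM) in the vehicle mice.

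Of the 6 genes, 2 were called as higher than with vehicle at 30 µg/kg. *Ahrr* was called at each dose from 1 µg/kg up, where its means rose with dose to a maximum of 29.8-fold at 30 µg/kg. Its calls at 1 and 3 µg/kg were lost under some other settings, and those at 10 and 30 µg/kg under none. *Tiparp* rose 1.82-fold at 30 µg/kg. The receptor, its partner and both chaperones stayed within 1.5-fold of vehicle at every dose. The plot of CPM in each mouse shows the flat receptor and partner beside the steep rise of *Ahrr*.

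**Figure D1:**
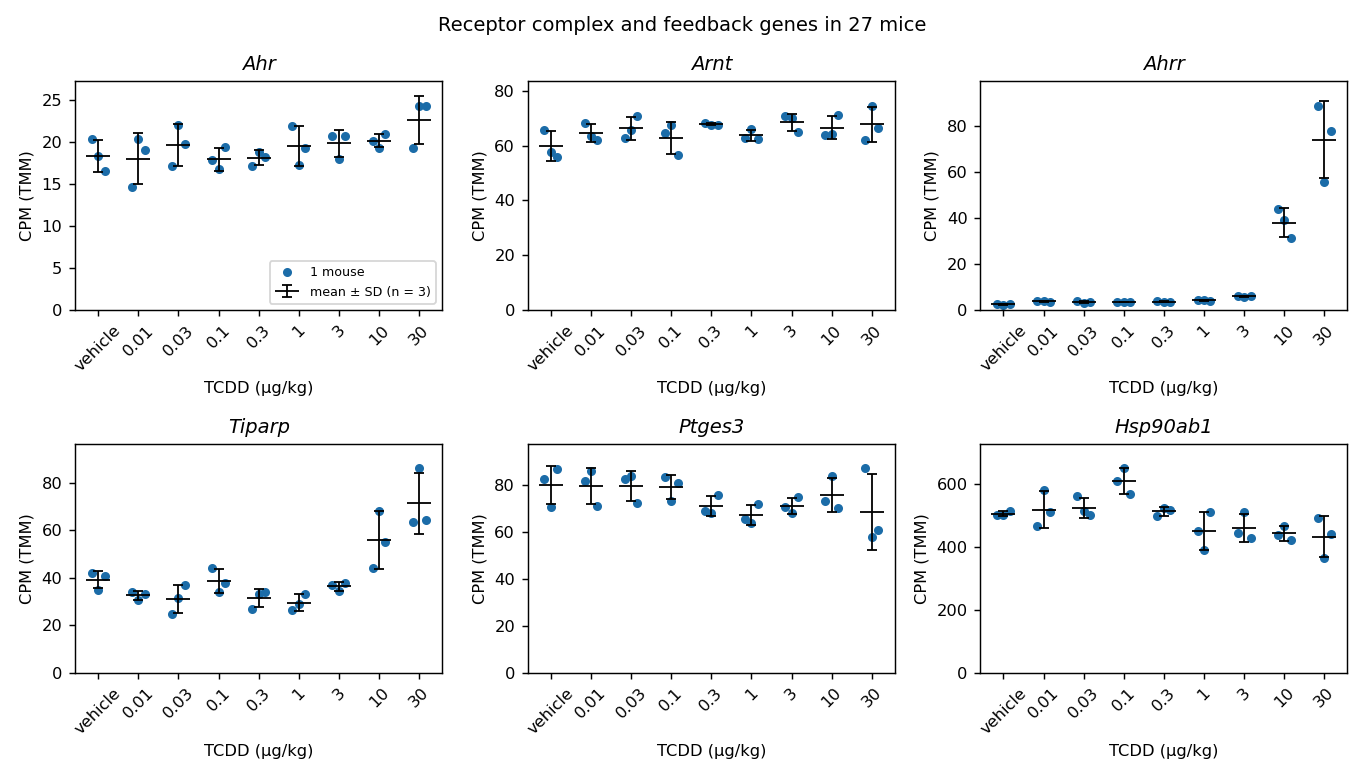
CPM (vertical axes, starting at 0) of the 6 genes in each of 27 mice (points) by TCDD dose (horizontal axes), with the mean ± SD of 3 mice per group. *Ahrr* stays at or below 6.01 CPM up to 3 µg/kg and lies between 31.2 and 88.9 CPM at 10 and 30 µg/kg. For *Ahr* and *Arnt*, the vehicle and 30 µg/kg groups overlap.

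From 0.01 to 0.3 µg/kg, edgeR called 0 of the 6 genes and 0% of all genes at each dose. At an unadjusted p under 0.05, 1, 2, 2 and 3 of the 6 genes passed at 0.01, 0.03, 0.1 and 0.3 µg/kg, beside 699, 591, 1037 and 1247 genes in all. DESeq2 called 0 of the 6 at each of these doses, and 3, 0, 5 and 12 genes in all. Limma called 0 of the 6 as well, and 0, 0, 0 and 1 gene in all. At 1, 3 and 10 µg/kg, 1 of the 6 genes (*Ahrr*) was called, beside 0.591%, 1.11% and 2.53% of all genes. At 30 µg/kg, 2 of the 6 (*Ahrr* and *Tiparp*) were called, beside 9.4% of all genes.

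*Ahrr* was the gene of the set with the fewest reads in control ileum, and the one that changed most. The vehicle mice had 2.27, 2.53 and 2.63 CPM, from 31 to 38 counts. At 1 µg/kg the mice had 3.79, 4.22 and 4.28 CPM. At 3 µg/kg they had 5.67, 5.97 and 6.01 CPM. At 10 µg/kg they had 31.2, 39.1 and 43.7 CPM, and at 30 µg/kg 55.7, 77.8 and 88.9 CPM, from 720 to 1241 counts. All 3 mice at 3 µg/kg lay above all 3 at 1 µg/kg, and the same held from 3 to 10 and from 10 to 30 µg/kg, as for 6.34%, 6.68% and 5.65% of all genes. In the order of the 9 group means, vehicle did not overlap its neighbour, the 0.03 µg/kg group, nor did the neighbours from 1 µg/kg upwards overlap each other, while the 4 pairs between 0.03 and 1 µg/kg did.

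Relative to vehicle, *Ahrr* rose 1.65-fold at 1 µg/kg (log2 fold change 0.72 ± 0.17 SE, edgeR adjusted p = 0.0452) and 2.37-fold at 3 µg/kg (1.24 ± 0.17, adjusted p = 0.000774). It rose 15.2-fold at 10 µg/kg (3.93 ± 0.16, edgeR adjusted p = 5.24e-14) and 29.8-fold at 30 µg/kg (4.90 ± 0.16, adjusted p = 5e-16). At 30 µg/kg it had the smallest p of the 16741 genes tested and the 7th largest fold increase. The exact two-sided permutation test on log2 CPM gave p = 0.1 at each of these doses, which is the smallest p that 3 against 3 mice allow. The call at 1 µg/kg was lost under 6 other settings, among them DESeq2 (adjusted p = 0.0728), and whenever any 1 of the 6 mice was left out (adjusted p 0.0731 to 0.17). With index use as a covariate, whose effect is estimated only within the 1 µg/kg group, the call at 3 µg/kg was lost (1.34, adjusted p = 0.098), and those at 10 (4.03) and 30 µg/kg (4.99, adjusted p = 3.57e-10) were not.

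The step at the low doses was small. From 0.01 to 0.3 µg/kg, *Ahrr* ranged from 2.9 to 3.83 CPM in 12 mice, above the highest vehicle mouse at 2.63 CPM. Its mean was 3.72 ± 0.123 CPM (SD, n = 3) at 0.01 µg/kg, 3.32 ± 0.388 at 0.03, 3.34 ± 0.013 at 0.1 and 3.52 ± 0.251 at 0.3 µg/kg, an order that did not follow the dose. The log2 fold changes were 0.58, 0.42, 0.43 and 0.51, each with an SE of 0.18, and edgeR's adjusted p was 0.475 or higher. *Ahrr* was higher in all 24 treated mice than in all 3 vehicle mice, as were 0.108% of the genes tested (18 genes). Dose by dose, all 3 treated mice lay above all 3 vehicle mice for 5.63%, 4.49%, 7.01% and 8.06% of genes from 0.01 to 0.3 µg/kg, and for 10.3%, 12.4%, 11.5% and 13.7% from 1 to 30 µg/kg. All these shares rest on the same 3 vehicle mice. Mouse 14, whose clock score stood apart, had 3.59 CPM of *Ahrr*, close to 3.74 and 3.83 CPM in the other mice given 0.01 µg/kg.

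*Tiparp* had a different course. The vehicle mice had 35.0, 40.8 and 41.9 CPM. At 0.01, 0.3 and 1 µg/kg all mice lay below all vehicle mice, as for 5.54%, 8.49% and 10.2% of all genes, with means of 32.5 ± 1.88, 31.3 ± 3.85 and 29.5 ± 3.62 CPM (SD, n = 3). None of these differences passed the test, with log2 fold changes of -0.27 ± 0.16, -0.32 ± 0.15 and -0.41 ± 0.16 SE and an edgeR adjusted p of 0.224 or higher. At 3 µg/kg the mice, at 34.3, 37.0 and 37.8 CPM, overlapped the vehicle group. In the order of its group means, the neighbours vehicle and 10 µg/kg, and 0.01 and 3 µg/kg, did not overlap, and the other 6 pairs did. The share of all genes was not computed for the pair of 0.01 and 3 µg/kg.

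At 10 µg/kg, *Tiparp* reached 44.0, 55.1 and 68.2 CPM, above all vehicle mice, as for 11.5% of all genes. The change did not pass the test (1.42-fold, log2 0.51 ± 0.15 SE, edgeR adjusted p = 0.0641). Without mouse 57, the lowest of the group, the change there was called (0.65, adjusted p = 0.0264). At 30 µg/kg the mice had 63.5, 64.3 and 86.1 CPM, and the 1.82-fold rise was called (0.86 ± 0.15, edgeR adjusted p = 0.000473). That call was lost with index use (0.61, adjusted p = 0.257) or the clock score (0.79, adjusted p = 0.441) as a covariate. Exons of *Tiparp* overlap *4931440P22Rik* on the other strand, whose counts were 13 to 22 with vehicle and 16 to 19 at the top dose, far fewer than the 790 to 1113 of *Tiparp*.

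**Figure D2:**
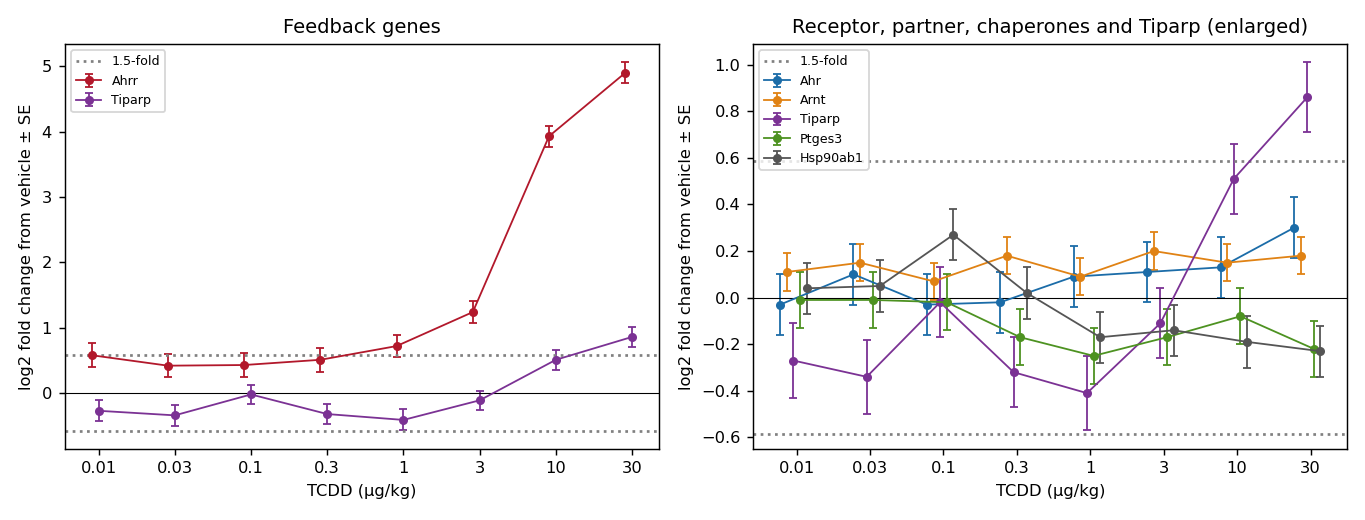
Log2 fold change from vehicle ± SE of edgeR's fit (vertical axes) by TCDD dose (horizontal axes, log-spaced doses), with *Ahrr* and *Tiparp* at left and, on an enlarged axis, *Tiparp* with the 4 other genes at right. *Ahrr* reaches 4.90 at 30 µg/kg, *Tiparp* lies at or below 0 up to 3 µg/kg and at 0.86 at 30 µg/kg, and the other 4 genes stay inside the dotted 1.5-fold lines.

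The 3 and 30 µg/kg groups both fell in the second use of the indexes and had closer clock scores, from -1.02 to -0.64 at 3 µg/kg. Between them, 2 of the 6 genes were called, beside 0.89% of all genes. *Ahrr* was 12.6-fold higher at 30 than at 3 µg/kg (log2 3.65 ± 0.15 SE, edgeR adjusted p = 4.32e-14), and *Tiparp* 1.96-fold higher (0.97 ± 0.15, adjusted p = 0.00146). All 3 mice at 30 µg/kg lay above all 3 at 3 µg/kg for both genes, as for 7.91% of all genes. Both calls remained with the clock score as a covariate, at 3.71 for *Ahrr* and 0.96 for *Tiparp* (adjusted p = 0.00437). They also remained without each of the 6 mice in turn, at 3.5 to 3.81 for *Ahrr* and 0.797 to 1.05 for *Tiparp*. *Ahr* (0.19 ± 0.13), *Arnt* (-0.02 ± 0.08), *Ptges3* (-0.05 ± 0.12) and *Hsp90ab1* (-0.09 ± 0.11) had an adjusted p of 0.537 or higher.

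Curves of the Hill form gave *Ahrr* a median effective dose (ED50) of 5.94 µg/kg on the log2 CPM scale (95% limits 5.29 to 6.91) and of 10.6 µg/kg on the CPM scale (9.03 to 21.5). The log2 curve left a residual sum of squares of 1.19, against 0.483 for the 9 group means. For the CPM curve these were 656 and 652. The log2 curve thus followed the group means less closely, and no test of fit was run. The limits on these scales did not overlap, so the ED50 of *Ahrr* depended on the scale. For *Tiparp* the ED50 was 7.84 µg/kg, with a lower limit of 3.55 µg/kg and an upper limit at the highest dose given. The curve of *Ahr* ended at that dose, so no ED50 could be set.

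*Ahr* itself changed little. Its vehicle mice had 16.5, 18.3 and 20.3 CPM, and its mice at 30 µg/kg 19.3, 24.2 and 24.3 CPM, so the groups overlapped by mouse 65. The difference was 1.23-fold (log2 0.30 ± 0.13 SE, edgeR adjusted p = 0.102). Across the other doses its means ran from 17.9 ± 1.33 CPM at 0.1 µg/kg to 20.1 ± 0.785 CPM at 10 µg/kg, and no neighbours in the order of the 9 group means were separated. Over the ranks of the 9 groups, *Ahr* rose by 0.031 ± 0.011 on the log2 scale per dose step (edgeR adjusted p = 0.0391). That call was lost with library size alone as the scaling (adjusted p = 0.316), with no filter on low counts (0.0962), without the 30 µg/kg group (0.329) and without any 1 of 7 mice (adjusted p up to 0.146). It was also lost with index use (0.422) or clock score as a covariate (slope 0.00871, adjusted p = 0.909), and within the first (0.871) and second index use (0.374).

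*Arnt*, the shared partner of AhR and of the hypoxia-inducible factors, had 55.8, 57.9 and 65.9 CPM in vehicle mice and 62.2, 66.4 and 74.7 CPM at 30 µg/kg. The groups overlapped, and the difference of 1.13-fold was not called (log2 0.18 ± 0.08 SE, edgeR adjusted p = 0.142). All of its 8 dose means lay above the vehicle mean of 59.9 ± 5.32 CPM, with a largest mean of 68.6 ± 3.05 CPM at 3 µg/kg. The mice at 0.3 µg/kg, at 67.6 to 68.5 CPM, all lay above all vehicle mice, as for 8.06% of all genes. That difference was not called (log2 0.18 ± 0.08 SE, edgeR adjusted p = 0.644). No neighbours in the order of the means were separated, and the dose trend did not pass either (0.016 ± 0.007 per step, adjusted p = 0.113). The counts of *Gm42672*, within its intron, were 7 to 16 with vehicle and 11 to 24 at the top dose, beside at least 790 for *Arnt*.

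*Hsp90ab1*, the constitutive HSP90 isoform, was the most abundant gene of the set. The vehicle mice had 501, 502 and 513 CPM. The 0.1 µg/kg group was the highest at 609 ± 40.2 CPM (SD, n = 3; log2 0.27 ± 0.11 SE, edgeR adjusted p = 0.71). All 3 of its mice lay above the vehicle group, as for 7.01% of all genes. The 30 µg/kg group was the lowest, at 363, 441 and 492 CPM, with all mice below the vehicle group (-0.23 ± 0.11, adjusted p = 0.153), as for 13.3% of all genes. The same held at 10 µg/kg (-0.19 ± 0.11, adjusted p = 0.377), beside 11.8% of all genes. In the order of its group means, 1 of 8 neighbouring pairs (0.03 and 0.1 µg/kg) did not overlap, for which the share of all genes was not computed. The gene fell with dose by 0.041 ± 0.012 on the log2 scale per step (edgeR adjusted p = 0.01), or 0.797-fold from vehicle to 30 µg/kg along the fitted line. Within the mice of the first index use the slope was 0.00423 ± 0.0223 SE (adjusted p = 0.965). Within those of the second it was -0.0358 ± 0.0445, near the slope over all mice but with a wide error (adjusted p = 0.803). The call of the trend was also lost with index use (slope -0.00252, edgeR adjusted p = 0.967) or clock score (0.00116, adjusted p = 0.99) as a covariate. Without the 30 µg/kg group the slope was -0.0366 (adjusted p = 0.0656). Reads that align to more than 1 place are not in the counts, and HSP90 genes have close relatives and processed copies in the genome, so its level may be undercounted.

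*Ptges3*, whose protein p23 is the co-chaperone of HSP90 and also has prostaglandin E synthase activity, had 70.6, 82.4 and 86.5 CPM in vehicle mice. At 30 µg/kg, mouse 65 had 87.0 CPM, above all vehicle mice, while mice 67 and 68 had 57.7 and 60.7 CPM, below all of them. No neighbours in the order of its group means were separated. The difference was not called (log2 -0.22 ± 0.12 SE, edgeR adjusted p = 0.218). Without mouse 65 it was -0.43 ± 0.10 (adjusted p = 0.00342), still under the 1.5-fold limit. The dose trend, -0.027 ± 0.011 per step, missed the threshold with all mice (adjusted p = 0.057) and passed without mouse 65 (-0.037, adjusted p = 0.00618). The same mouse was the highest of its group for *Hsp90ab1* and for *Ahrr*, and the lowest for *Ahr*, *Arnt*, *Tiparp* and *Cyp1a1* (14821 counts, against up to 27996). Over all genes its counts also stood apart. A chi-square per degree of freedom, larger for less alike counts, was 83.08 against mouse 67 and 50.84 against mouse 68. Between mice 67 and 68 it was 21, and the highest in any other group was 25.08 (mice 41 and 43 at 1 µg/kg). The part of this difference in the values above was not tested.

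A trend over the ranks of the 9 groups was fitted to each gene. It passed for 3 rising genes (*Ahrr*, *Tiparp* and *Ahr*), beside 13.4% of all genes, and for 1 falling gene (*Hsp90ab1*), beside 12.8%. *Ahrr* rose by 0.632 ± 0.060 on the log2 scale per step (edgeR adjusted p = 1.75e-08) and *Tiparp* by 0.103 ± 0.024 (adjusted p = 0.00184). Within the 16 mice of the first index use the slopes were 0.0894 for *Ahrr* (adjusted p = 0.294) and -0.0605 for *Tiparp* (adjusted p = 0.448). Within the 11 mice of the second use they were 1.56 (adjusted p = 5.34e-05) and 0.419 (adjusted p = 0.00198). With the clock score as a covariate no slope passed, at 0.517 for *Ahrr* (adjusted p = 0.273). A test for any difference among the 9 groups passed for *Ahrr* (adjusted p = 5.58e-19), *Tiparp* (1.01e-05) and *Hsp90ab1* (0.0331), 3 of the 6 genes, beside 9.53% of all genes. For *Hsp90ab1* it did not pass without vehicle mouse 4 (edgeR adjusted p = 0.0514) or without mouse 68 at 30 µg/kg (0.0648).

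Compared per length, as CPM per kb of exon, the order of the genes in vehicle mice ran from *Hsp90ab1* (168 ± 2.36, SD, n = 3) to *Ptges3* (36 ± 3.72), *Tiparp* (9 ± 0.849), *Arnt* (7.48 ± 0.665), *Ahr* (2.98 ± 0.309) and *Ahrr* (0.263 ± 0.0195). The mice of *Tiparp* and *Arnt*, neighbours in this order, overlapped (lowest *Tiparp* 8.03, highest *Arnt* 8.23 CPM per kb), and those of the other neighbours did not. At 30 µg/kg *Ahrr* stood at 7.85 ± 1.79 CPM per kb, near *Arnt* at 8.46 ± 0.794 and above *Ahr* at 3.67 ± 0.459. The ratio of *Ahrr* to *Ahr* within a mouse was between 0.0813 and 0.104 without TCDD and between 0.189 and 0.207 at the 3 µg/kg dose. It lay between 0.973 and 1.42 at 10 µg/kg, and between 1.5 and 3 at the top dose. There was thus more repressor than receptor transcript per length in 2 of 3 mice at 10 µg/kg and in all 3 at 30 µg/kg. The ratio of *Arnt* to *Ahr* was 2.44 to 2.61 without TCDD and 2.11 to 2.48 at the top dose. In scrapings, fewer cells of a type and less RNA per cell cannot be told apart, and these ratios do not say that the transcripts are in the same cells.

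**Figure D3:**
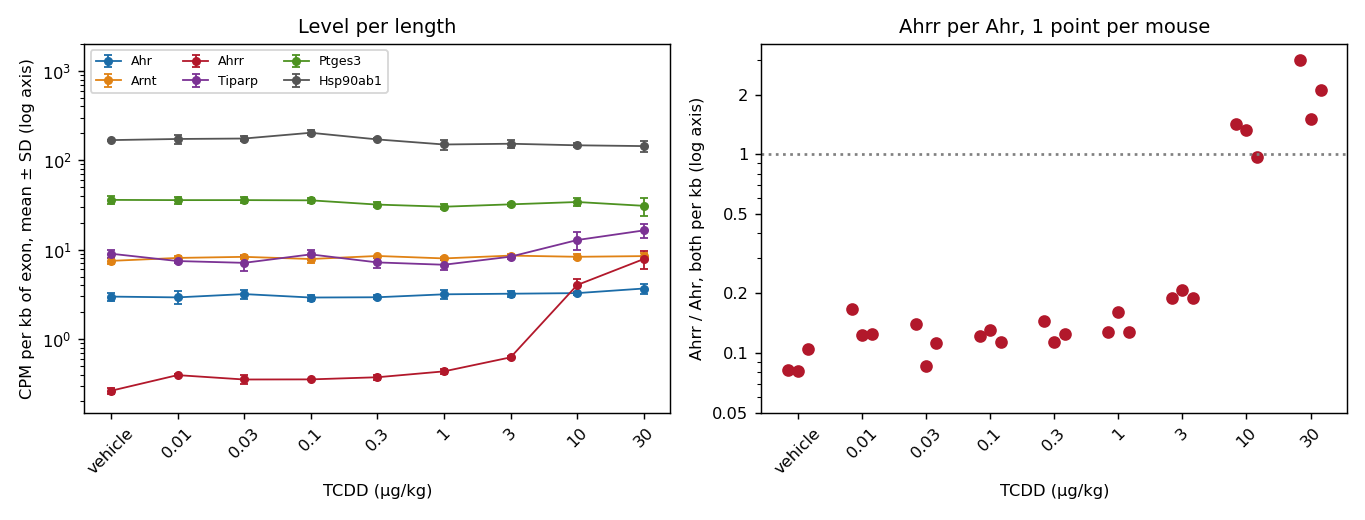
Left, mean ± SD of 3 mice in CPM per kb of exon (log axis) by TCDD dose for the 6 genes, with *Ahrr* lowest up to 3 µg/kg and at 7.85 at 30 µg/kg. Right, the per-kb ratio of *Ahrr* to *Ahr* (log axis) in each of 27 mice, with a dotted line at 1, which every mouse at 30 µg/kg exceeds.

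The classical target genes were set beside the feedback genes. *Cyp1a1*, a xenobiotic-metabolizing enzyme and the usual readout of AhR activity, was all but absent without TCDD, where no vehicle mouse had more than 3 counts. Its counts were 59 to 103 at 1, 180 to 925 at 3, and 14821 to 27996 at 30 µg/kg. It was called at 1 µg/kg like *Ahrr*, but from a base near 0. *Cyp1b1* had 1.58 ± 0.706 CPM (SD, n = 3) in vehicle mice, 5.08 ± 2.17 at 3 µg/kg and 103 ± 22.8 at 30 µg/kg. Unlike *Ahrr*, its mice at 0.01 to 0.3 µg/kg overlapped the vehicle mice. *Cyp1b1* also had the pattern most like *Ahrr* over the 27 mice (Pearson r of log2 CPM 0.982), followed by *Dgkh* (0.970) and *Ugt1a7c* (0.947). The 27 mice share dose, index use and clock score, so these values describe likeness and are not tests.

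**Figure D4:**
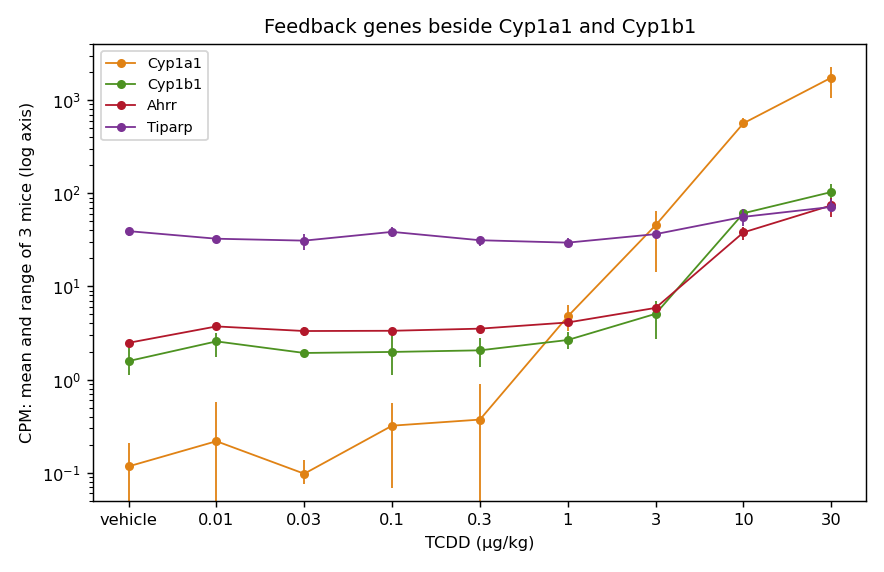
Mean CPM (points) and range of 3 mice (vertical lines) on a log axis by TCDD dose for *Ahrr*, *Tiparp*, *Cyp1a1* and *Cyp1b1*, where lines that reach the lower edge include a mouse with 0 counts. *Ahrr* and *Cyp1b1* rise together between 3 and 30 µg/kg, *Cyp1a1* rises from 1 µg/kg, and *Tiparp* keeps the narrowest range.

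Of 11 AhR target genes tested, 8 rose and 0 fell at 30 µg/kg, with a median log2 fold change of 0.86, against 0.02 over all genes. The list was drawn up with earlier results of these data known and includes *Ahrr* and *Tiparp*. The counts of this and the other lists are to be read against the 9.4% of all genes called at that dose. *Ugt1a6a* (3.23-fold) and *Ugt1a6b* (3.1-fold), which conjugate xenobiotics to glucuronic acid and share exons, were among those that rose (log2 1.69 ± 0.17 and 1.63 ± 0.24 SE). The members that were not called were *Nqo1* (0.07 ± 0.20), *Gsta1* (-0.07 ± 0.21) and *Socs2* (0.16 ± 0.13).

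*Hsp90aa1*, the inducible HSP90 isoform, had 66.2 ± 8.34 CPM with vehicle and 54.1 ± 8.5 CPM at the top dose (SD, n = 3), and was not called (log2 -0.29 ± 0.19 SE, edgeR adjusted p = 0.309). Of 19 genes of the HSP90 system and heat shock response, 1 rose and 1 fell, a share near the 9.4% called among all genes. The gene that rose was *Fkbp5*, an HSP90 co-chaperone and glucocorticoid-responsive gene, from 58.4 ± 9.3 to 272 ± 81.9 CPM (4.66-fold, edgeR adjusted p = 4.04e-06). The gene that fell was the mitochondrial co-chaperonin *Hspe1* (0.63-fold, adjusted p = 0.0107). The median of the list was -0.20, and *Fkbp4*, the HSP90 co-chaperone whose pattern over the 27 mice was most like that of *Hsp90ab1* (r = 0.832), was at 0.702-fold (log2 -0.51 ± 0.13), under the fold limit.

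Among 11 tested bHLH-PAS genes, the family of AhR, 2 rose and 3 fell at 30 µg/kg, with a median of 0.02. *Hif3a* rose 5.5-fold, from 2.57 ± 0.509 to 14.2 ± 2.63 CPM (edgeR adjusted p = 3.35e-06). *Arnt2*, the neural relative of *Arnt*, fell from 4.02 ± 0.194 to 1.49 ± 0.532 CPM (0.37-fold, edgeR adjusted p = 0.00332), so *Arnt* stayed the far more abundant of the pair. The others that fell were the clock activators *Arntl* (0.165-fold) and *Npas2* (0.388-fold). *Hif1a* (-0.29 ± 0.19) and *Epas1* (0.10 ± 0.14), which share ARNT with AhR, were not called. In the list of 15 clock genes, 10 rose and 4 fell, led by *Dbp* (6.29 ± 0.98), *Per3* (4.09 ± 0.43), *Ciart* (4.06 ± 0.59), *Nr1d1* (4.02 ± 0.67), *Tef* (3.92 ± 0.50) and *Nr1d2* (3.39 ± 0.46).

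Of 14 coregulators of AhR and AHRR, 1 rose, the retinoblastoma gene *Rb1*, whose protein binds AhR (1.53-fold, log2 0.62 ± 0.11 SE, edgeR adjusted p = 0.000531), with a list median of 0.14. Of 8 genes of AhR turnover and transport, 0 were called by edgeR in either direction, with a median of -0.25. In that list *Ube2l3*, a ubiquitin-conjugating enzyme (-0.39 ± 0.08, adjusted p = 0.00269), *Xpo1*, the nuclear exporter (-0.40 ± 0.12, adjusted p = 0.0187), and *Kpna2*, an importin (-0.52 ± 0.16, adjusted p = 0.028), passed on p and not on size. Of 10 mono-ADP-ribosyltransferases and their hydrolase, *Tiparp* alone rose, while *Parp9* (0.536-fold, edgeR adjusted p = 4.45e-06) and *Parp14* (0.593-fold, adjusted p = 0.00222), both known as interferon-responsive genes, fell. The plot of the lists at 30 µg/kg shows these groups side by side.

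**Figure D5:**
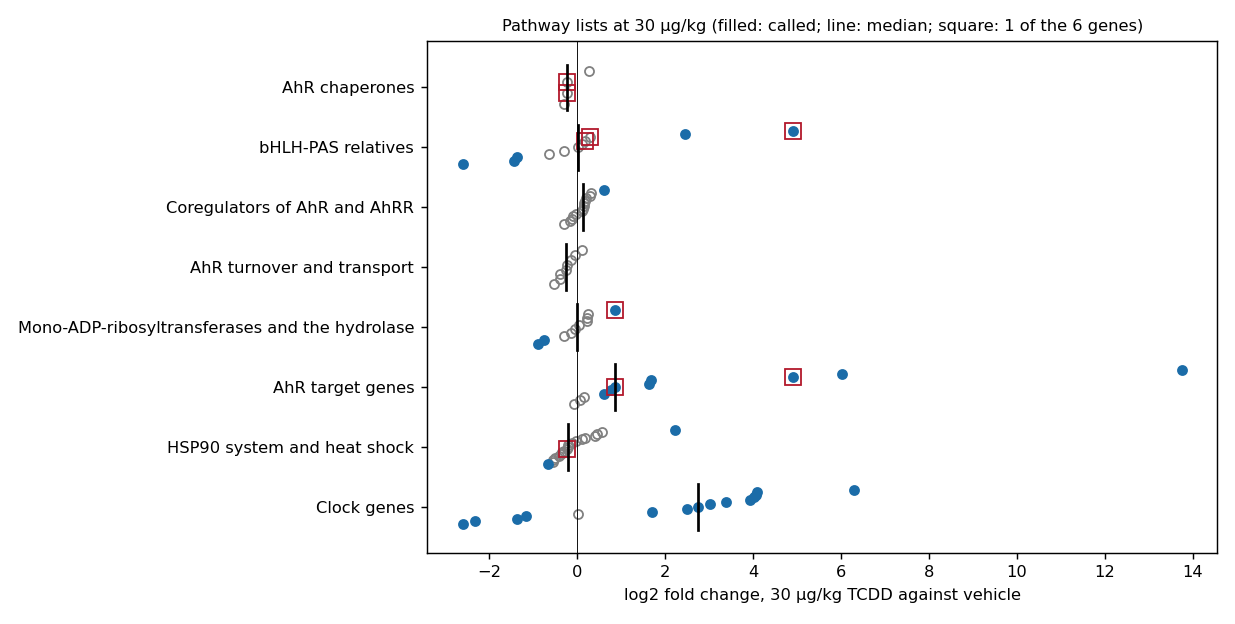
Log2 fold change at 30 µg/kg TCDD against vehicle (horizontal axis) of each tested gene in 8 lists (rows). Filled points were called, open points were not, vertical bars are list medians and squares mark the 6 genes of the complex, of which *Ahrr* at 4.90 and *Tiparp* at 0.86 are filled.

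Markers of other cell types also differed at 30 µg/kg. Those of enteroendocrine cells summed to 145 to 164 CPM without TCDD and 268 to 329 CPM at the top dose (4 of 7 rose). Markers of B and plasma cells summed to 1389 to 1936 and to 336 to 749 CPM (3 of 6 fell). Tuft cell markers summed to 23.9 to 37.1 CPM without TCDD and 37.8 to 53.8 CPM at the top dose, where 1 of 4 rose, *Gnat3*. At 10 µg/kg all 4 rose, beside 2.53% of all genes called. Of 6 stem and transit-amplifying markers 2 fell at 30 µg/kg, *Lgr5* and *Top2a*. Enterocyte markers summed to 13062 to 15753 and 10962 to 23080 CPM, with 2 rising and 1 falling of 10. The endothelial *Vwf*, 1 of 4, rose as well, and none was called among the 8 T cell, 5 Paneth, 6 macrophage, 5 smooth muscle, 5 fibroblast and 1 enteric glia genes tested. Of 6 goblet cell markers none was called, but their sum did not overlap between groups, with 21007 to 23685 CPM without TCDD and 29300 to 32137 CPM at the top dose. Among single genes, 13.7% had all 3 mice at 30 µg/kg above all 3 vehicle mice. *Muc2*, *Tff3*, *Fcgbp* and *Clca1* passed on the edgeR adjusted p (0.00379, 0.000452, 0.00761 and 0.0154) and stayed under the 1.5-fold limit, at 1.36-fold to 1.4-fold. Within the 30 µg/kg group, mouse 65 had the lowest enterocyte sum (10962 CPM, against 23080 and 19306) and the highest smooth muscle sum (322 CPM, against 74.3 and 34.9). No marker found in the tables was at 0 counts in all mice. The part of these shifts in the changes of *Ahrr* and *Tiparp* was not tested.

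The remaining likenesses over the 27 mice were lower. *Tiparp* was most like *Brwd1* (Pearson r = 0.867), *Gramd1c* (0.864) and *Cdc37l1* (0.862). *Ptges3* was most like *Nasp* (0.867), *Set* (0.858) and *Rangap1* (0.852), and *Hsp90ab1*, after *Fkbp4*, like *Cyb5r1* (0.830) and *Vcp* (0.826). *Ahr* was most like *Slc35e3* and *1810034E14Rik* (both 0.779) and *Sis* (0.755), and *Arnt* like *F10* (0.768), *Chdh* (0.712) and *Gm7030* (0.678). Between the members themselves, *Ahrr* and *Tiparp* had r = 0.82 and *Ptges3* and *Hsp90ab1* r = 0.58, while *Ahr* and *Arnt* had r = 0.23.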

How the data were processed

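Ileal RNA-Seq libraries came from 3 independent mice per group, prepared with a NuGEN Ovation Mouse kit. The authors checked reads with FastQC 0.11.3, trimmed them with Trimmomatic 0.33, mapped them to GRCm38 (release 81) with TopHat2 2.1.0, converted them with SAMtools 1.2.0 and deposited raw counts per Ensembl gene, 1 table per mouse. The submitters' processing notes name HTSeq 0.6.1, with no strand setting in the sources used here. Reads aligned to more than 1 place or ambiguous between genes are not in the gene counts. Reads aligned once but assigned to no gene in the counting, 44.48% to 49.52% per mouse, were left out. The sources used here do not say whether these lay in introns, between genes or on the other strand.

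Symbols were joined from GENCODE M21. Genes were filtered with filterByExpr (minimum count 10, total 15), scaled by TMM and tested with edgeR 4.0.16 in R 4.3.3, in a quasi-likelihood fit over 9 groups without covariates. The paper's P1(t) criterion was replaced by the adjusted p. The dose trend is a slope on dose rank. Log2 CPM used a prior count of 2. Hill curves had 4 parameters (ED50 from 0.01 to 30 µg/kg, slope 0.5 to 8) and limits from the 95% F test. Single genes were also compared by exact permutation tests. Alternatives were DESeq2 1.42.0, limma 3.58.1, other scalings and filters, covariates for index use and clock score, subsets and leaving out mice. Index use was inferred from the index sequences in the deposited tables' names. It is the first or second appearance of an index in order of mouse number. No library was within sampling noise of another in its group, and pairs from different groups were not compared. The paper states that mice were housed together, but the cage of each mouse is not given in the sources used here, so mice were treated as independent and the part of cage was not tested. The 6 genes and all gene lists were chosen with earlier results of these data known. Named genes are the 6 members, fixed reference genes (*Hsp90aa1*, *Arnt2*, *Cyp1a1* and *Cyp1b1* among them), up to 6 called genes per list by size of change at 30 µg/kg, and the 3 genes most like each member. Uncalled list genes, ileal markers and cell type markers were named after their values were seen. The single results of some list genes are not reported here. With counts of 31 to 38 for *Ahrr* in vehicle mice, counting error adds to the spread between mice, whereas for the other genes, with at least 176 counts, it is smaller. Python 3.11.15 and scipy 1.17.1 were used.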

Additional observations from a re-analysis of the deposited data

How the results depend on the processing

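Of 558 comparisons of a member's fold change or slope with the same value under another setting, 516 kept their sign and side of the threshold, 12 that were called in neither changed sign, 26 lost the call, 1 gained it and 3 lost it with the sign reversed. Most of the 558 were of results not called in the main fit, which had no call to lose. The setting with no fold minimum left the values themselves unchanged. The 516 are therefore not a measure of how stable the calls were. *Ahrr* at 10 and 30 µg/kg was called under every setting (4.27 and 5.27 with clock score as a covariate). It was also called without every mouse tried (3.82 to 4.05 and 4.74 to 5.05). Both 30 against 3 µg/kg calls were kept (without a mouse 3.5 to 3.81 and 0.797 to 1.05). *Ahrr* at 1 µg/kg lost its call under upper-quartile normalization (0.729), library size only (0.712), index use (0.783) or clock score (0.964) as a covariate, only the 6 mice compared (0.724) and DESeq2 (0.721), so 0 of 6 members were called there, and 0 without any mouse (0.664 to 0.775). At 3 µg/kg the call was lost with index use (1.34) and clock score (1.56), leaving 0 of 6, and kept without each mouse (1.19 to 1.29). *Tiparp* at 30 µg/kg was lost with index use (0.609) and clock score (0.793), leaving 1 of 6 (without a mouse 0.684 to 0.939, 2 called), and at 10 µg/kg it was 0.338 to 0.653 without a mouse, with 1 to 2 members called. The cause of these losses was not tested. The trend of *Ahrr* lost its call within the first index use (0.0894) and with index use (0.556) or clock score (0.517) as a covariate (without a mouse 0.589 to 0.653). That of *Tiparp* reversed within the first use (-0.0605) and lost its call without the 30 µg/kg group (0.053), with index use (0.0624) and with clock score (0.0756) (without a mouse 0.0811 to 0.116). *Hsp90ab1* reversed within the first use (0.00423) and with clock score (0.00116). Members with a trend numbered 0 within the first use and with either covariate, 2 within the second use, 1 without the 30 µg/kg group and 3 to 5 without a mouse, against 4, and 2 to 4 passed the test for any difference without a mouse. Over all genes, calls at 0.01 µg/kg were 3 with DESeq2 and 3 with no filter, at 0.03 µg/kg 5 with only the 6 mice, and at 0.1 µg/kg 5 with DESeq2 and 8 with no filter, against 0. At 0.3 µg/kg they were 12 (DESeq2), 31 (no filter), 11 (only the 6 mice) and 1 (at least 10 counts, library size only, limma, upper-quartile), and 0 to 1 without a mouse at these doses. Against 99 at 1 µg/kg there were 0 (clock score), 170 (DESeq2), 31 (index use), 169 (no filter) and 151 (no fold minimum), and 12 to 107 without a mouse. Against 185 at 3 µg/kg there were 0 (clock score), 6 (index use), 308 (no filter), 344 (only the 6 mice) and 285 (no fold minimum), and 69 to 224 without a mouse. Against 423 at 10 µg/kg there were 4 (clock score), 48 (index use) and 636 (no fold minimum), and 213 to 452 without a mouse. Against 1574 at 30 µg/kg there were 14 (clock score), 482 (index use), 656 (only the 6 mice) and 2976 (no fold minimum), and 871 to 2473 without a mouse. Between 30 and 3 µg/kg DESeq2 called 249, against 149 (49 to 684 without a mouse). The trend passed for 7 (clock score), 195 (index use), 25 (first use), 240 (second use) and 2398 genes (without the 30 µg/kg group), against 4379 (3325 to 4682 without a mouse), and DESeq2 found any difference in 2533, against 1596 (981 to 2953 without a mouse). Scaling by library size alone moved the median log2 fold change of all genes at 30 µg/kg from 0.019 to -0.111. No paired analysis was possible because the labels number each mouse once and no mouse number occurs in more than 1 group, the replicate numbers used here being only names.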

Other observations

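The trend of *Ptges3* passed with library size as the only scaling (-0.0387 on the log2 scale per step, adjusted p = 0.0227). Without mouse 65, edgeR's adjusted p at 30 µg/kg was also under 0.05 for *Ahr* (0.402, adjusted p = 0.0257), *Arnt* (0.237, adjusted p = 0.0478) and *Hsp90ab1* (-0.332, adjusted p = 0.0282), all under the 1.5-fold limit. The ED50 of *Hsp90ab1* was 0.344 µg/kg (95% limits 0.201 to 5.66), with the slope at its upper bound of 8.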
